A study of Mus musculus with 2 samples.

Results

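Lung myofibroblasts were examined among Nes-GFP+ cells, that is, cells sorted for strong fluorescence of a GFP reporter driven by regulatory elements of the Nestin gene. Of 5608 kept lung cells, 1352 (24.1%, 95% exact binomial interval 23.0 to 25.3%) met the myofibroblast rule, and both libraries of the study together held 9759 kept cells. The study sorted Nes-GFP+ cells from lung and from brain of adult mice aged about 6 weeks. The labels give the strain as C57BL/6, whereas the methods describe breeding of the transgenic lines with CD1 or mixed CD1 and C3H animals. Each tissue gave 1 single-cell library, both tissues carried the same reporter, and no treatment was applied. The gate for GFP was set with brain cells as the positive control, so lung cells without reporter activity were not sampled, and the number of animals is not given in the sources used here. With 1 lung library there is no replicate and no test. Every interval below is a 95% exact interval over summed unique molecular identifiers (UMIs) or cells and covers counting error alone.

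The members were chosen by their own UMI counts. A cell was a member when Tgfbi, Hhip, Fgf18 and Wnt5a together gave at least 4 UMIs and when this sum exceeded the sums of 4 competing gene sets, which mark pericytes (PCs), endothelial cells, matrix fibroblasts and smooth muscle cells (SMCs). Cells with more than 1 UMI of Mki67 and Top2a or with any Ptprc UMI were left out. The 4256 other kept lung cells were the comparison, and among them the same sums defined 2332 PCs, 564 endothelial cells, 148 SMCs and 107 matrix fibroblasts, each a class by rule, and left 1105 cells of no class. The libraries shared 15 cell barcodes, 3 of them belonging to members.

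Myofibroblasts are mesenchymal cells that combine the secretion of matrix with an actin and myosin contractile apparatus. In the lung they lie along alveolar ducts and at the tips of the septa, respond to PDGF-A from epithelium through the receptor PDGFRA, deposit elastin while alveoli form, and expand in fibrosis. Fgf18 and Wnt5a encode secreted ligands, Hhip encodes a membrane protein that binds and restrains hedgehog ligands, and Tgfbi encodes a matrix protein induced by TGF-beta.

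Tgfbi carried the selection. It supplied 75.6% of the members' rule UMIs and was found in 1345 members, while Wnt5a was found in 1068, Fgf18 in 748 and Hhip in 385. All 4 genes were found together in 198 members and only 1 of them in 143. The median rule sum was 19 UMIs, and the sum reached 92 in the highest member. Of the 1588 kept cells with a sum of at least 4, 236 were left out, 132 of them because of proliferation genes and 48 because the matrix fibroblast sum was as high. Just inside the threshold, 140 members had a sum of 4 or 5 and gave 231 CPM of Pdgfra (UMIs per 1000000 UMIs) and 25481 CPM of Col1a1. The 449 cells just outside, with a sum of 2 or 3, gave 134 CPM of Pdgfra and 11233 CPM of Col1a1. These values describe the selection and support nothing further.

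Pdgfra, the receptor that defines this lineage in the developing lung, was no part of the rule. It stood at 289 CPM in the members and 63.7 CPM in the other lung cells, a ratio of 4.54 (interval 4.26 to 4.85). PCs gave 16.2 CPM and endothelial cells 8.95 CPM, whereas matrix fibroblasts gave 142 CPM. The 1105 comparison cells of no class gave 187 CPM of Pdgfra and 511 CPM of Tgfbi, nearer to the members than any of the 4 classes. They include the 119 cells that failed the rule on proliferation genes alone and gave 402 CPM of Pdgfra and 726 CPM of Agt. Ratios over the other lung cells thus have such cells in the comparison. Nes, the gene behind the reporter, stood at 363 CPM in the members and 355 CPM in the other lung cells, a ratio of 1.02 whose interval, 0.982 to 1.06, includes equality. PCs, the most numerous class, gave 491 CPM of Nes.

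The members were not 1 population. The share of a cell's UMIs in Col1a1, Col1a2, Col3a1 and Dcn fell into separate ranges, with 5 members between 2.5 and 3.5% and most members far from that interval. Setting the limit at 3%, a choice made after seeing the data, gave 285 collagen-rich members (21.1%, 18.9 to 23.4%) with a median of 11.5% and 1041 collagen-low members (77.0%, 74.7 to 79.2%) with a median of 0.933%. A further 26 members (1.92%, 1.26 to 2.81%) with at least 3 UMIs of Epcam, Krt5, Krt8 and Krt18 were set apart as keratin members. The collagen-rich members had deeper profiles, with a median of 9629 UMIs against 6258 in the collagen-low members, and a lower rule sum, with medians of 7 and 24. The median share of mitochondrial UMIs was 2.53% in collagen-rich and 4.62% in collagen-low members, and its part in the differences between the ranges was not tested. The plot of contractile against collagen UMIs shows the ranges.

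**Figure D1:**
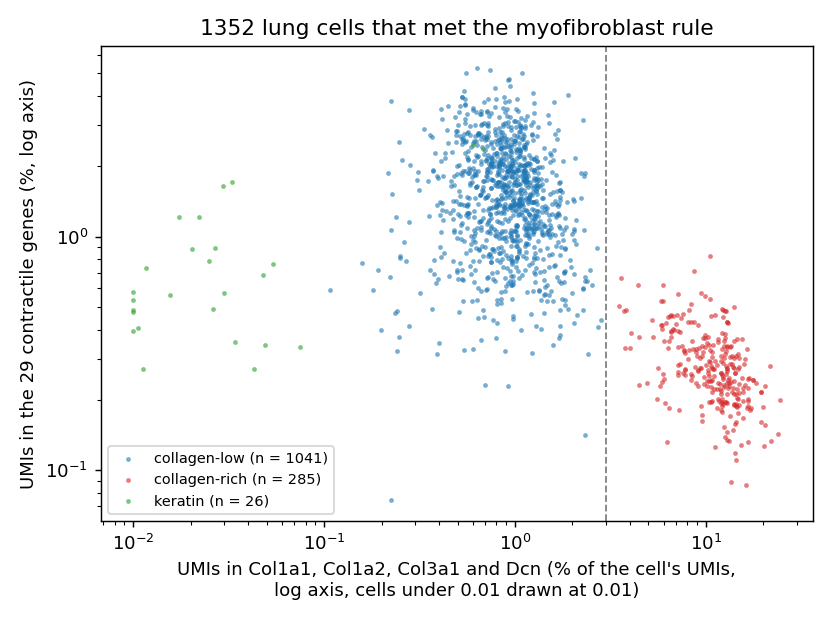
Each point is 1 of the 1352 members, placed by the percent of its UMIs in Col1a1, Col1a2, Col3a1 and Dcn (horizontal, log axis) and by the percent in the 29 contractile genes (vertical, log axis), with the dashed line at 3%. The 285 collagen-rich members lie to the right and low, the 1041 collagen-low members in the middle, and the 26 keratin members mostly at the far left.

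The collagen-low members carried the contractile programme and Nes. Acta2, smooth muscle alpha-actin, stood at 2737 CPM in them and at 97.4 CPM in the collagen-rich members. Tagln, an actin-binding protein of contractile cells, stood at 3080 and 36.3 CPM, a ratio of collagen-rich over collagen-low members of 0.0118 (0.00959 to 0.0144). Nes followed the same split with 521 and 19.3 CPM. Both ranges held Pdgfra, at 342 and 190 CPM, and Hhip did not separate them, at 105 and 102 CPM. The intermediate filament gene Des was at 643 CPM in collagen-low and 6.90 CPM in collagen-rich members.

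Collagen-rich members carried genes of matrix-producing fibroblasts. Dcn, a small proteoglycan that binds collagen, stood at 8297 CPM in them against 132 CPM in collagen-low members, and Col1a1 at 35260 against 2127 CPM, both by construction of the split. Outside the 4 genes of the split, Serpinf1 was at 1500 against 12.9 CPM, Gpc3 at 1532 against 14.2 CPM, and Pi16, which marks adventitial fibroblasts, at 140 against 0.308 CPM. Of 8 adventitial fibroblast markers past the limit on low genes, Dcn left out, 7 were at least 2-fold higher in collagen-rich members, and the marker Dpp4 had no UMI in any member. The transcription factor gene Meox2 gave 305 CPM in collagen-rich and 4.46 CPM in collagen-low members. Tcf21 gave 171 and 12.6 CPM, but it belongs to the competing matrix fibroblast sum, so the rule itself limited its level. Across all genes, 804 of 10628 (7.56%) were at least 2-fold higher and 1728 (16.3%) at least 2-fold lower in collagen-rich than in collagen-low members.

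For the collagen-rich range the myofibroblast label went against the contractile genes. Of 25 contractile genes outside the rule, none was at least 2-fold higher and 21 were at least 2-fold lower than in collagen-low members, beside 7.56 and 16.3% of all genes, with a summed ratio of 0.173 (0.169 to 0.177). Across 10723 genes, Pearson's r of log2(CPM + 10) was 0.971 between collagen-rich members and matrix fibroblasts, and 0.859 between collagen-rich and collagen-low members. These correlations run across genes of summed profiles from the same library and are descriptions. Collagen-rich members met the rule mainly on Tgfbi, at 638 CPM, with 13.8 CPM of Fgf18, and they are named here by their leading genes alone.

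Keratin members departed from the label in Pdgfra and Nes, though they held contractile genes above the collagen-rich level. Their leading genes were Krt18, Ccl21a, Krt8, Krt5 and Cd74, of which Krt18, Krt8 and Krt5 led by construction, as they helped set these cells apart. Ccl21a, a chemokine, stood at 11451 CPM against 1.84 CPM in the other members, and Cd74, the invariant chain of MHC class II, at 7663 against 1.95 CPM. Pdgfra gave 1 UMI and Nes 7 UMIs in the 26 cells, while Tgfbi was found in all 26. Tagln stood at 1580 CPM and was found in 22 of them, and Acta2 stood at 1013 CPM, 40% of it in 1 cell. The competing SMC sum was 248 CPM in keratin and 13.8 CPM in collagen-rich members. Outside the members, 24 other kept lung cells passed the same keratin limit, and Scrublet called none of the 26 a doublet. It called only 74 of all 5608 kept lung cells, so the lack of calls cannot exclude doublets. No cell type name was given to them.

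A single keratin member set several of the highest ratios in the whole comparison. Of the secretoglobins, secreted proteins of airway club cells, Scgb3a2 gave 1214 UMIs in this cell and 7 in all the other members, and Scgb1a1 gave 457 and 13. The ratio of Scgb3a2 over the other lung cells was 261 with the cell and 1.50 without it. Scgb3a1 and Retnla went from 14.2 to 0.0603 and from 12.0 to 0.114. The same cell held 43 UMIs of Tgfbi and 98 of Acta2.

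Against all other lung cells, 597 of 10745 genes (5.56%) were at least 2-fold higher and 1241 (11.5%) at least 2-fold lower in the members. With collagen-low members alone the counts were 535 (4.98%) and 1478 (13.8%). Apart from the genes of that single cell, the 15 highest ratios included Lrrc15, Cyp2e1, Ibsp, Scx, Agt, Fgf9, Pappa2, Foxq1 and Net1. Agt, angiotensinogen, stood at 701 CPM in the members and 50.6 CPM in the other lung cells, a ratio of 13.9 (13.0 to 14.8), and it was at 1020 CPM in collagen-low and 5.81 CPM in collagen-rich members. Lrrc15, a membrane protein known from activated fibroblasts, stood at 47.0 against 1.61 CPM and was found in 203 members. Scx, a transcription factor of tendon cells, stood at 34.6 against 2.15 CPM, and Ibsp, a sialoprotein of bone, at 45.3 against 2.33 CPM. For these 4 genes the collagen-rich members gave at most 5.81 CPM.

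The 10 lowest ratios belonged to genes of blood, immune and endothelial cells and 1 gene of sister chromatid cohesion, Esco2. The rule left out cells with Ptprc, proliferation genes or a higher endothelial sum and kept them in the comparison. Low immune, endothelial and proliferation genes in the members were thus set at least in part by the selection. Hba-a2, a haemoglobin chain, gave 0.738 CPM in the members and 198 CPM in the other cells, and Lyve1 gave 0.632 and 127 CPM. Of the immune markers fixed as a list, the 12 other than Ptprc summed to 12.4 CPM in the members and 176 CPM in the other lung cells, with Ms4a1 and Nkg7 at 0. The 12 epithelial markers summed to 182 CPM in all members and 792 CPM in the other lung cells. Keratin members gave 6567 CPM and collagen-low members 7.70 CPM, a contrast largely fixed by the selection. Epcam, Krt5, Krt8 and Krt18, which set the keratin members apart, are 4 of the 12. In keratin members they gave 1009, 1600, 666 and 1232 CPM, and Scgb1a1 gave a further 1890 CPM, all from 1 cell. Schwann and neural markers summed to 56.7 CPM in the members, with Sox10 at 0, and to 90.7 CPM in the other lung cells. Mesothelial markers, 4 of 6 with counts, summed to 76.6 CPM with Wt1 at 0, against 450 CPM in the other lung cells. The only 1 past the limit on low genes gave 70.2 and 449 CPM of these sums. It stood at 751 CPM in PCs, where Msln and Wt1 were at 0, so the sums describe that gene alone.

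**Figure D2:**
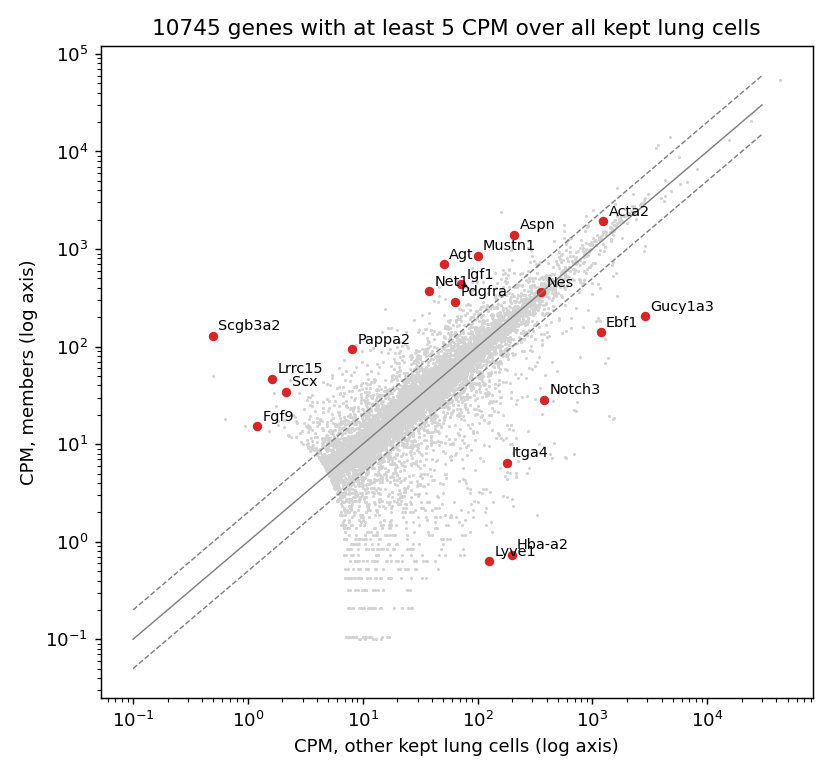
CPM of summed UMIs in the 1352 members (vertical) against the 4256 other kept lung cells (horizontal), both log axes, for the 10745 genes with at least 5 CPM over all kept lung cells. The solid line marks equal CPM and the dashed lines 2-fold either way, and labelled genes include Agt at 701 against 50.6 CPM above the lines, Nes near equality and Notch3 at 28.7 against 378 CPM below them.

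The contractile apparatus was compared as a list of actins, myosins, tropomyosins, calponins and their regulators. In the members, 3 of 25 genes outside the rule were at least 2-fold higher than in the other lung cells and 2 were at least 2-fold lower, beside 5.56 and 11.5% of all genes, with a median ratio of 0.985 beside 0.935 over all genes tested and a summed ratio of 1.21 (1.20 to 1.22). In collagen-low members the summed ratio was 1.62 (1.61 to 1.63), with 6 genes at least 2-fold higher and 2 at least 2-fold lower, beside 4.98 and 13.8% of all genes. The higher genes included Tagln (ratio 3.51), Csrp1 (2.66), Myocd (5.67) and Pdlim3 (10.7), each for collagen-low members. Myocd encodes a coactivator of serum response factor, and Pdlim3 a protein of the actin cytoskeleton. Cnn2, a calponin, was at 242 CPM in collagen-low members and 512 CPM in the other cells.

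SMCs exceeded the members in most of this apparatus. Acta2 stood at 13686 CPM in SMCs, and the contractile sum in the members was 0.289 of that in SMCs, with 14 of 25 genes at least 2-fold lower and 1 at least 2-fold higher. Against PCs the contractile sum was 1.09 and against matrix fibroblasts 2.36. Myh11, smooth muscle myosin heavy chain and a gene of the competing SMC sum, stood at 473 CPM in collagen-low members, 1893 CPM in SMCs and 4.35 CPM in matrix fibroblasts. Pdlim3 ran the other way, at 690 CPM in collagen-low members and 139 CPM in SMCs. Over all genes, 1257 of 10683 (11.8%) were at least 2-fold higher and 866 (8.11%) at least 2-fold lower in the members than in SMCs.

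The upstream windows of 3 contractile genes are shown as examples from the 8 whose windows hold a CArG box, the motif of serum response factor. Whether the motif bears on their levels was not tested. In collagen-low members Acta2 and Pdlim3 were above the other lung cells, while Myl9, a myosin light chain, stood at 630 against 757 CPM, short of a 2-fold difference. The sequences are the 250 bases before the annotated start in RefSeq on build GRCm38.p6, written 5′ to 3′ along the gene's strand, and capitals mark the CArG box, with 1 base other than A or T allowed in its core and both strands searched. Acta2 lies at chr19:34255374-34255623 on the minus strand, Myl9 at chr2:156775214-156775463 and Pdlim3 at chr8:45885237-45885486, both on the plus strand.
Acta2: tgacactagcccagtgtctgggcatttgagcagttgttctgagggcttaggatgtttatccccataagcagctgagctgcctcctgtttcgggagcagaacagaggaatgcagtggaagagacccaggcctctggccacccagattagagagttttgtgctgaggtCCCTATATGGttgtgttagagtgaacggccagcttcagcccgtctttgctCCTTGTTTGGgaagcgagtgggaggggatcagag
Myl9: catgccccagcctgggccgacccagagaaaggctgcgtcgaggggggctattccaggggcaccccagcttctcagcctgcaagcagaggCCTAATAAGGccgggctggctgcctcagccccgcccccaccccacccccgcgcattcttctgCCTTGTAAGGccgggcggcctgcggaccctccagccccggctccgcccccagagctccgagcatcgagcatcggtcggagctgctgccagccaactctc
Pdlim3: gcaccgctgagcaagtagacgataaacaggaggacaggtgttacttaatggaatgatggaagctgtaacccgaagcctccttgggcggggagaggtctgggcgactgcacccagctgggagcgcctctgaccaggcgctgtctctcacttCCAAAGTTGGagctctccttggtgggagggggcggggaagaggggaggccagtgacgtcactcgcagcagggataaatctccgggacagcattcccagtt
In the Acta2 window the motifs begin 84 and 34 bases before the start, in Myl9 161 and 99 bases, and in Pdlim3 100 bases. Of the 29 contractile genes, 23 had a window, and 8 of their 26 windows held a match, against 8.59% of all 32851 windows of that length. A match is a description of these letters and no evidence of binding.

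Elastic fibre genes were higher in the members as a sum, and the collagen-low and collagen-rich ranges contributed different ones. The list gave a summed ratio of 1.92 (1.90 to 1.94) over the other lung cells, with 8 of 20 genes at least 2-fold higher and 1 at least 2-fold lower, beside 5.56 and 11.5% of all genes. For collagen-low members alone the sum was 1.47, with 5 genes at least 2-fold higher, 4 at least 2-fold lower, beside 4.98 and 13.8% of all genes, and a median ratio of 1.08. Matrix fibroblasts had a higher sum than the members, 14842 against 8766 CPM, with 3 of 20 genes at least 2-fold higher and 7 at least 2-fold lower in the members, beside 10.1 and 6.2% of all genes. Eln, elastin itself, stood at 1316 CPM in collagen-low and 410 CPM in collagen-rich members against 273 CPM in the other lung cells. Ltbp2, a binding protein of microfibrils, was at 1243 and 30.2 CPM. Mfap4 and Fbln5, which take part in elastic fibre assembly, ran the opposite way, at 485 and 4093 CPM for Mfap4 and at 47.7 and 650 CPM for Fbln5. SMCs gave 1956 CPM of Eln.

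The collagen sum differed between the ranges by construction, since Col1a1, Col1a2 and Col3a1 helped define the split and made up most of the sum. The list had a summed ratio of 2.29 in all members and 0.746 (0.741 to 0.752) in collagen-low members. Without these 3 genes, a choice made after seeing the data, the ratio was 0.940 (0.931 to 0.949) in all members and 0.716 (0.707 to 0.724) in collagen-low members, with 8 of 18 genes at least 2-fold higher and 5 at least 2-fold lower in all members, beside 5.56 and 11.5% of all genes. In collagen-low members 3 of 21 collagen genes were at least 2-fold higher and 7 at least 2-fold lower, beside 4.98 and 13.8% of all genes. Between the ranges, the list without the 3 genes was 2.14 times higher (2.11 to 2.17) in collagen-rich members, with 11 of 17 genes at least 2-fold higher and 2 at least 2-fold lower, beside 7.56 and 16.3% of all genes. Col12a1 and Col27a1 ran the other way, at 157 and 225 CPM in collagen-low members and 8.36 and 23.2 CPM in collagen-rich members. A list of genes of fibrosis-activated fibroblasts, which also holds Col1a1, had a summed ratio of 2.02 in all members and 0.720 in collagen-low members, or 1.02 and 0.852 without Col1a1. Tnc, a matrix glycoprotein of that list, was at 894 CPM in collagen-low and 68.3 CPM in collagen-rich members, while Postn was at 288 and 2988 CPM.

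Of 23 matrix proteases and protease inhibitors, 13 were at least 2-fold higher and 1 at least 2-fold lower in the members, beside 5.56 and 11.5% of all genes, with a summed ratio of 2.45. Collagen-low members alone gave 8 higher and 4 lower, beside 4.98 and 13.8% of all genes, with a summed ratio of 2.37. Htra1, a secreted serine protease, stood at 1325 CPM in collagen-low members and 195 CPM in the other lung cells. Adamtsl2, a fibrillin-binding protein, was at 36.8 and 4.03 CPM.

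**Figure D3:**
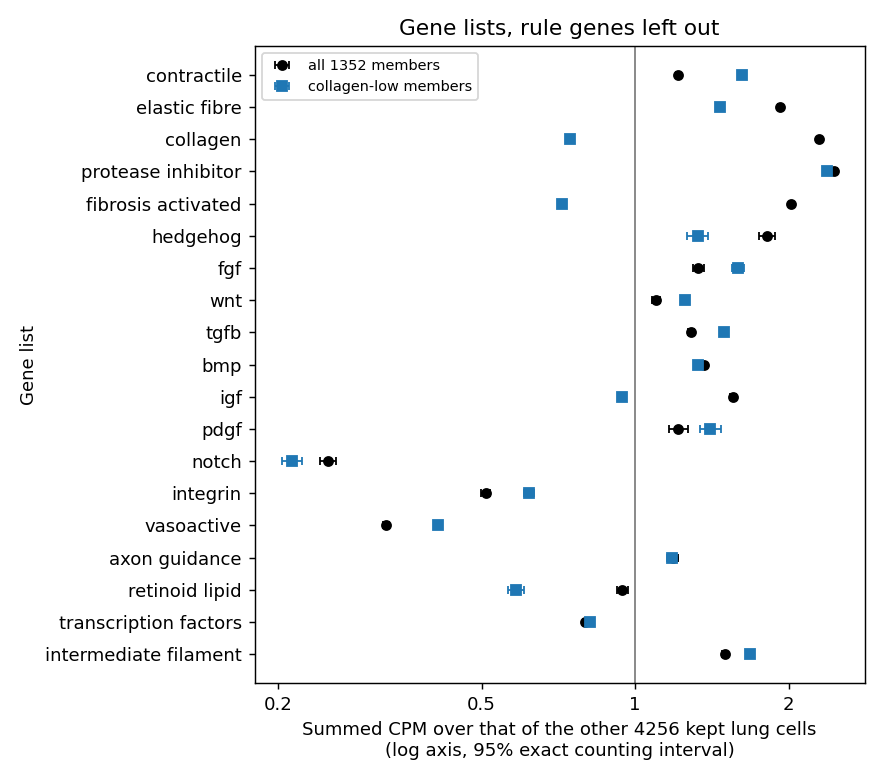
Ratio of summed CPM over the 4256 other kept lung cells (horizontal, log axis) for 19 gene lists, for all 1352 members (black circles) and collagen-low members (blue squares), with 95% exact counting intervals and the rule genes left out. The collagen list, which holds 3 genes of the collagen split, lies at 2.29 and 0.746, and the Notch list at 0.250 and 0.213.

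Hedgehog signalling in the lung runs from epithelial or endothelial ligands to mesenchymal receptors. Outside Hhip, 6 of 12 hedgehog genes were at least 2-fold higher and 1 at least 2-fold lower in the members, beside 5.56 and 11.5% of all genes. Gli1, a transcription factor and target of the pathway, stood at 22.0 CPM against 8.25 CPM, a ratio of 2.67 (2.18 to 3.27), and at 19.2 CPM in collagen-low and 30.5 CPM in collagen-rich members. Matrix fibroblasts gave 28.2 CPM of Gli1. Against them none of 11 hedgehog genes was at least 2-fold higher and 1 was at least 2-fold lower in the members. Of all genes, 10.1 and 6.2% were, so these counts lie near those shares. The summed ratio was 0.565 (0.526 to 0.609). Over the other lung cells, the receptor Ptch1 had a ratio of 1.71 and the co-receptor Boc 2.33. The ligand Dhh gave 1 UMI in the members and 68.9 CPM in endothelial cells. In collagen-low members alone the count was 2 higher and 3 lower, beside 4.98 and 13.8% of all genes, and the summed ratio fell to 1.33 from 1.81.

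Several FGF, WNT and IGF ligands were among the members' higher genes, but the FGF and WNT lists held genes at least 2-fold different in both directions. The FGF list without Fgf18 held 6 genes at least 2-fold higher and 4 at least 2-fold lower among 16, beside 5.56 and 11.5% of all genes. Its median ratio was 0.887 beside 0.935 over all genes, and its summed ratio was 1.33 (1.30 to 1.36). Fgf9 stood at 15.3 CPM against 1.21 CPM, and Fgf7, a mitogen of alveolar epithelium, at 38.6 against 6.77 CPM. The receptor Fgfr2 stood at 49.1 CPM in collagen-low and 1.82 CPM in collagen-rich members, and Etv1, a transcription factor downstream of FGF, at 205 and 9.45 CPM. The FGF feedback inhibitors Spry4 and Dusp6 were lower in the members, at ratios of 0.290 and 0.467. Igf1, a growth factor for neighbouring epithelium, stood at 438 against 72.4 CPM, with 525 CPM in collagen-low and 259 CPM in collagen-rich members, and matrix fibroblasts gave 369 CPM. Among WNT ligands, Wnt11 was at 211 and Wnt9a at 31.4 CPM in collagen-low members, against 39.6 and 3.45 CPM in the other lung cells. The WNT list as a whole held 6 genes at least 2-fold higher and 7 at least 2-fold lower among 33, set against the same shares of all genes, and Lgr6, an R-spondin receptor, had a ratio of 9.29 with no UMI in collagen-rich members.

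In the TGF-beta list without Tgfbi, 5 of 23 genes were at least 2-fold higher and 2 at least 2-fold lower in all members, beside 5.56 and 11.5% of all genes. In collagen-low members the counts were 6 and 4, beside 4.98 and 13.8%. The ligand Tgfb3 stood at 175 against 37.7 CPM, the mediator Smad3 at 36.9 against 9.82 CPM, and Thbs1, which can release latent TGF-beta, at 402 against 82.7 CPM. The ligand Tgfb1 stood at 27.0 against 51.7 CPM. In the BMP list the secreted antagonist Nog had a ratio of 5.38. Of its 22 genes, 5 were at least 2-fold higher and 1 at least 2-fold lower, beside 5.56 and 11.5% of all genes, and collagen-low members alone gave 3 and 2.

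Most Notch genes and vasoactive genes were lower in the members than in the pooled other lung cells. None of 12 Notch genes was at least 2-fold higher and 11 were at least 2-fold lower, beside 5.56 and 11.5% of all genes, with a summed ratio of 0.250 (0.242 to 0.259). Notch3, the receptor of mural cells, stood at 28.7 CPM in the members, 593 CPM in PCs, 376 CPM in SMCs and 66.3 CPM in matrix fibroblasts, against which the Notch sum was 0.782. Of 23 vasoactive genes, 14 were at least 2-fold lower and 5 at least 2-fold higher, and in collagen-low members 15 and 5, where 13.8% of all genes were lower and 4.98% higher. The direction depended on the class, with summed vasoactive ratios of 0.204 against PCs, 1.04 against SMCs, 1.74 against endothelial cells and 1.91 against matrix fibroblasts. Gucy1a3 and Gucy1b3, subunits of the nitric oxide receptor, had ratios of 0.0713 and 0.0533. The higher vasoactive genes included Lpar1, a lysophosphatidic acid receptor, at 307 CPM in collagen-low and 318 CPM in collagen-rich members, and P2ry14, a receptor of nucleotide sugars, at 1013 and 6.54 CPM. Of 11 integrin genes, 2 were at least 2-fold higher and 5 at least 2-fold lower in the members, beside 5.56 and 11.5% of all genes. Their summed ratio was 0.510, with Itga4 at 6.43 against 179 CPM and Itga9 at 183 against 55.0 CPM.

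Among transcription factors, 6 of 45 were at least 2-fold higher and 10 at least 2-fold lower in the members, beside 5.56 and 11.5% of all genes. In collagen-low members the counts were 5 and 13, beside 4.98 and 13.8%. Ebf1 stood at 141 CPM in the members and 1180 CPM in the other lung cells, with 25.1 CPM in collagen-low and 412 CPM in collagen-rich members. Nr2f1 stood at 28.5 and 219 CPM, with 30.6 and 25.4 CPM in the ranges. Tbx4 and Foxf1, factors of lung mesenchyme, were at 287 and 222 CPM in collagen-low members and 7.27 and 22.2 CPM in collagen-rich members. In all members their ratios over the other lung cells were 1.20 and 0.462. Runx1 was at 126 and 2.91 CPM, and Hoxb6 at 72.4 and 13.4 CPM. Among 27 axon guidance genes, 12 were at least 2-fold higher and 6 at least 2-fold lower in all members, beside 5.56 and 11.5% of all genes. In collagen-low members the counts were even, 9 and 9, with a median ratio of 0.764. Robo2, a SLIT receptor, stood at 189 against 27.8 CPM in all members and Sema3c, a secreted semaphorin, at 265 against 66.3 CPM.

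For the lists that follow, 5.56% of all genes were at least 2-fold higher and 11.5% lower in all members, and 4.98 and 13.8% in collagen-low members. The IGF list gave 4 of 10 genes at least 2-fold higher in the members and 1 lower, with a summed ratio of 1.55. In collagen-low members alone 3 were higher and 4 lower, with a summed ratio of 0.941, and against matrix fibroblasts the sum in all members was 0.530. Retinoid and lipid genes gave 2 of 15 higher and 2 lower, with a summed ratio of 0.943, and in collagen-low members none was higher and 7 were lower, with a summed ratio of 0.584. Of 8 intermediate filament genes past the limit on low genes, 3 were higher and 1 lower, with a summed ratio of 1.50, and in collagen-low members 2 and 3. Immediate early genes, which respond to tissue dissociation, summed to a ratio of 1.45 in the members and to 1.29 in collagen-low members, and their part in the other ratios was not tested.

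The members were also compared with each class in turn. Against PCs, 1213 of 10731 genes (11.3%) were at least 2-fold higher and 1016 (9.47%) at least 2-fold lower, and among genes with at least 50 CPM in the higher class the lowest ratio was that of the somatostatin receptor gene Sstr2, at 0.738 against 130 CPM. Against matrix fibroblasts, 1083 of 10680 (10.1%) were higher and 662 (6.2%) lower. The genes most above matrix fibroblasts were Egfem1, Trim67, Agt, Mustn1 and P2ry14, each at most 17.8 CPM in collagen-rich members and at least 227 CPM in collagen-low members. Against endothelial cells, 1809 of 10720 (16.9%) were higher and 1338 (12.5%) lower, with Pamr1, Kcnb2 and Pappa2 among the highest and Lyve1 and Icam2 among the lowest. The heat map by class gives these levels.

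**Figure D4:**
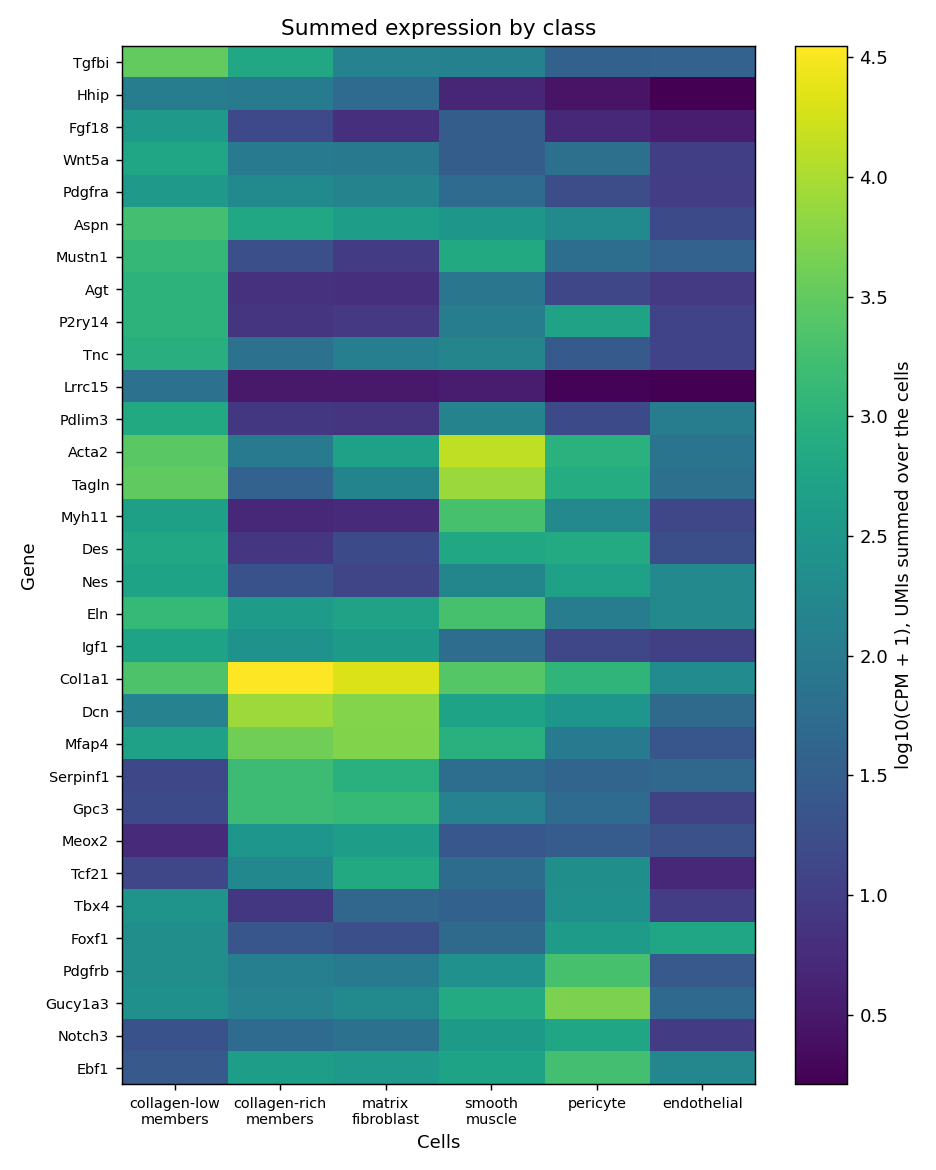
Log10(CPM + 1) of UMIs summed over the cells of each class (columns) for 32 genes (rows), from dark (low) to yellow (high). Mustn1, Agt and Tnc are high in the collagen-low column and low in the collagen-rich column, which resembles the matrix fibroblast column for Col1a1, Dcn, Mfap4 and Gpc3.

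Of 7 markers of ductal myofibroblasts past the limit on low genes, 6 were at least 2-fold higher in the members than in the other lung cells and none was at least 2-fold lower, beside 5.56 and 11.5% of all genes. The higher level lay in the collagen-low members, whose markers summed to 4398 CPM, whereas the collagen-rich members gave 744 CPM, the other lung cells 821 CPM, and all 7 markers were at least 2-fold lower in collagen-rich than in collagen-low members, beside 16.3% of all genes. Mustn1, a small nuclear protein of the musculoskeletal system, had a ratio of 8.51 and Cdh4, a cadherin, 8.48. Aspn, a small leucine-rich proteoglycan, stood at 1408 against 208 CPM.

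Shares of cells were compared after thinning each cell to 2000 UMIs, which left out 62 members, all of them collagen-low. Pdgfra was then found in 38.9% of collagen-low members (35.8 to 42.1%), in 32.3% of collagen-rich members (26.9 to 38.0%) and in 1.68% of endothelial cells, which lack the receptor. Without thinning the shares were 63.4, 76.1 and 2.66%, at median depths of 6258, 9629 and 5405.5 UMIs. Thinning thus turned the order of the ranges, and their intervals overlap. Nes was found after thinning in 58.4% of collagen-low members (55.3 to 61.5%) and 60.5% of PCs (58.3 to 62.6%), and in 3.16% of collagen-rich members and 1.89% of matrix fibroblasts, with unthinned shares of 85.1, 81.2, 13.0 and 8.41%. Collagen-rich members thus carried Nes at about the share of matrix fibroblasts, although all were sorted for the reporter, and their intervals, 1.45 to 5.91% and 0.229 to 6.65%, overlap. Agt separated the ranges further, at 81.7% of collagen-low and 0.702% of collagen-rich members after thinning and 91.5 and 3.86% before, with 1.12% of endothelial cells after thinning.

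**Figure D5:**
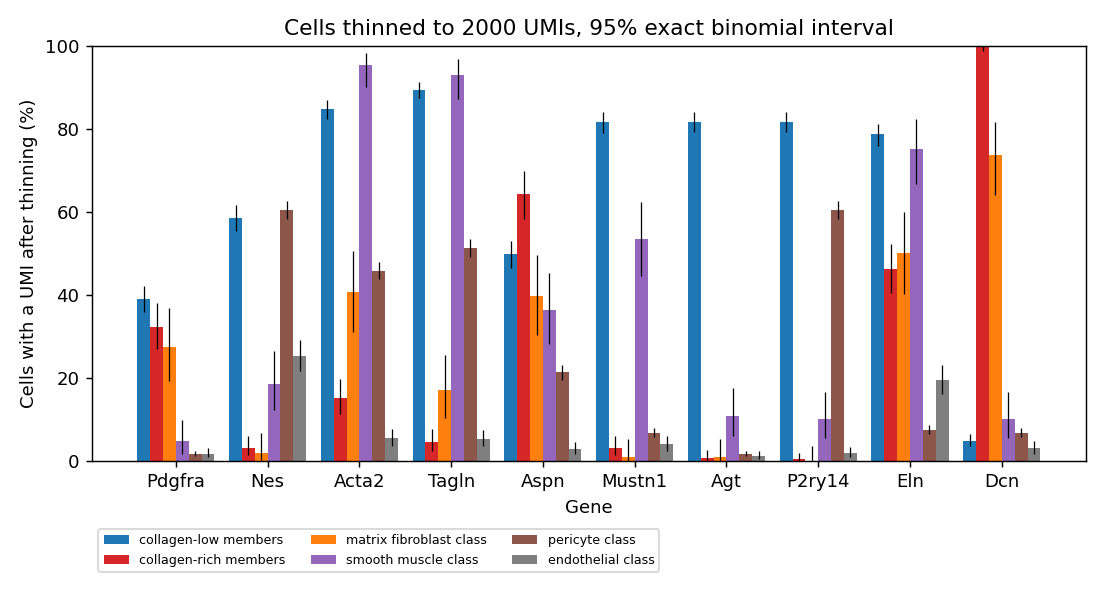
Percent of cells with at least 1 UMI of each gene after thinning to 2000 UMIs (bars from 0, error bars 95% exact binomial intervals) in collagen-low and collagen-rich members and 4 comparison classes. Mustn1, Agt and P2ry14 were found in over 80% of collagen-low members and in few collagen-rich members, while Dcn shows the reverse.

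Collagen-low members varied further along Aspn. After thinning, 492 of 979 had no Aspn UMI, 359 had at least 3 and 128 had 1 or 2, limits set after seeing the data. The cells with at least 3 had more Lrrc15 (ratio of CPM 64.4, 21.6 to 316), Scx (27.4), Ptgis (26.3), Gja1 (14.6) and Cdh4 (11.2) than the cells with none. Of the rule genes, Hhip was at 284 against 22.4 CPM and Fgf18 at 585 against 196 CPM. Pdgfra ran the other way, at 104 against 547 CPM (ratio 0.191, 0.148 to 0.244), with Mgp at 1223 against 4965 CPM, Cd34 at 78.0 against 587 CPM and Stc1 at 25.1 against 243 CPM. The summed contractile ratio was 0.970 (0.947 to 0.993), and of 25 contractile genes outside the rule 3 were at least 2-fold higher and 1 at least 2-fold lower in the cells with at least 3 Aspn UMIs, beside 8.18 and 7.05% of all genes. Acta2 was at 2487 and 2579 CPM (ratio 0.964, 0.907 to 1.02), Myocd at 65.5 and 15.2 CPM, and Actn1, an actin crosslinker, at a ratio of 0.261. Aspn is listed for ductal myofibroblasts and was high by construction of the groups. Among the other markers of that list, Cdh4 and Lgr6 (ratio 6.85) were higher with Aspn and Stc1 was lower. Mustn1 (1.02) and P2ry14 (0.916) were near equality.

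Within the members the contractile sum of thinned cells was ranked against other genes, as a description across cells of the same library. The sum includes genes of the competing SMC sum, and Tgfbi is a rule gene, so the rule itself ties Tgfbi to the contractile sum. Over 1290 members the highest Pearson's r belonged to Actb (0.544), Tgfbi (0.451), Ckb (0.438), Calm2 (0.400) and Filip1l (0.398), and the lowest to Col3a1 (-0.577), Dcn (-0.536), Col1a2 (-0.534), Col1a1 (-0.532) and Igfbp7 (-0.517). Within the 979 collagen-low members the order changed. Actb (0.480) and Tmsb4x (0.457) led and Nexn followed at 0.314, while Malat1 (-0.352) and mt-Rnr2 (-0.282) were lowest and Col3a1 was at -0.242. The thinned cells share depth but not RNA quality, whose part was not tested.

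Cells left out for proliferation were set beside the collagen-low members. The 119 cells that failed the rule on Mki67 and Top2a alone, 4 of them collagen-rich, gave 402 CPM of Pdgfra, 503 CPM of Nes, 2193 CPM of Acta2 and 726 CPM of Agt. Collagen-low members gave 342, 521, 2737 and 1020 CPM of the same genes. The intervals of the cells left out include the collagen-low level for Nes (459 to 549 CPM) and lie above it for Pdgfra (364 to 444 CPM) and below it for Acta2 and Agt. Aspn stood at 510 against 1775 CPM, Mustn1 at 504 against 1236 CPM, Eln at 588 against 1316 CPM and Tagln at 1959 against 3080 CPM, and the median depth of the cells left out was 8926 UMIs.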

How the data were processed

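The authors demultiplexed the reads with bcl2fastq 2.19.1.403, processed them with UMI-tools 1.0.0, aligned them to mm10 with STAR 2.7.1a and assigned them to genes with featureCounts 1.6.4, per the labels and the submitters' processing notes. The deposited values are raw UMI counts per gene and barcode, with no normalization by the authors, and the annotation version is not given in the sources used here. The lung table held 5981 barcodes, 36816962 UMIs and 23156 genes.

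Cells with 201 to 3999 genes and under 40% of UMIs in mitochondrial genes were kept. UMIs were summed over cells and scaled to CPM, and genes with at least 5 CPM over all kept lung cells were compared. A gene was counted as different at a ratio of at least 2 or at most 0.5. Ratio intervals are exact conditional binomial, and a sum of 0 was set to a floor of 3 counts. The members and gene lists were chosen with earlier results of these data known, and 9 of 566 list symbols had no counts, 3 of them starting with U. Genes named are list genes, the 15 highest and 10 lowest ratios against the other lung cells, the 5 highest and 5 lowest against each class, and the 5 highest and 5 lowest correlations with the contractile sum. The genes that separate the collagen ranges, Aspn groups and keratin members were chosen after seeing their values. Reads from near-identical genes can be split by the counting, which makes haemoglobin, keratin and MHC values less certain.

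Members had a median of 7001.5 UMIs and other lung cells 5213, so the minimum of 4 UMIs admitted deeper cells more readily. Free RNA in droplets was not modelled. Doublets were kept. Scrublet (scanpy 1.11.5, expected rate 0.06) called 74 of 5608 kept lung cells, 12 of them members. The summing and intervals were tested on simulated data. Python 3.11.15, numpy 2.4.6, scipy 1.17.1 and pandas 2.3.3 were used.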

Additional observations from a re-analysis of the deposited data

Results flagged for a closer look

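The brain library was no part of the comparisons, and 31 of its 4151 kept cells (0.747%, 95% exact binomial interval 0.508 to 1.06%) met the lung rule, which was flagged as a signal in data outside the main measurement. Their median rule sum was 6 UMIs at a median depth of 6676 UMIs. They gave 558 CPM of Tgfbi, 584 CPM of Wnt5a, 264 CPM of Pdgfra, 4402 CPM of Dcn and 1189 CPM of Slc6a13, a transporter gene of which lung members had no UMI. Acta2 and Aspn had no UMI in these 31 cells and Nes had 1 UMI.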

How the results depend on the processing

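No paired analysis was possible because each tissue gave 1 library and no result comes from a test. Limits were the selection on Tgfbi, the mixture of ranges, the choice of comparison cells and the use of 1 lung library. In all 15 alternatives that gave a value, the Pdgfra ratio stayed above 1, from 2.09 to 10.8 around 4.54, and so did the elastic fibre sum, from 1.42 to 2.15. The cause of the shifts below was not tested.

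Without Tgfbi in the rule, 466 members remained, of which 46 were collagen-rich, with 395 genes higher, a Pdgfra ratio of 2.09 and an elastic fibre ratio of 1.54. Under that rule the ratios over the other lung cells were 0.947 for Dcn, 0.981 for Gpc3, 0.932 for Serpinf1, 0.118 for Scgb1a1, 0.0342 for Scgb3a1, 0.0305 for Scgb3a2 and 0 for Retnla. Without Hhip, Nes, the contractile sum and the elastic fibre sum were at 1.08, 1.26 and 1.82, without Wnt5a at 1.07, 1.24 and 1.84, and without Fgf18 the elastic fibre sum was at 1.89. A minimum of 3 UMIs gave contractile and elastic fibre ratios of 1.18 and 1.98. A minimum of 6 gave 1.34 and 1.70, with Nes at 1.15 and Pdgfra at 4.20. When cells of any gene number were admitted, Pdgfra, contractile and elastic fibre ratios were 3.43, 1.20 and 1.95. After thinning to 2000 UMIs they were 6.23, 1.26 and 1.99. Weighting cells equally gave 5.26, 1.31 and 2.02, with Nes at 1.07. Against PCs, matrix fibroblasts and SMCs alone they were 10.8, 0.964 and 2.15, with Nes at 0.827 and 974 genes higher, so Nes and the contractile sum depend on the comparison cells. A limit of 20 CPM left 321 genes higher and 625 lower, and no limit gave 1600 and 3013.

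The following were chosen after seeing the data. Without the genes of the collagen split, the sums of all members were at 0.940 for the collagen list and 1.02 for the fibrosis list. Without collagen-rich members the ratios of Nes, Pdgfra, the contractile sum and the elastic fibre sum were 1.42, 5.18, 1.59 and 1.42. Without keratin members the contractile and elastic fibre sums were 1.22 and 1.96. Without both they were 1.62 and 1.47, with Nes at 1.47 and Pdgfra at 5.37. Without collagen-rich members, and then without both, Col1a1 was at 0.554 and 0.572, Dcn at 0.127 and 0.130, Gpc3 at 0.0778 and 0.0790, Mfap4 at 0.827 and 0.853, and Serpinf1 at 0.0891 and 0.0873. Without keratin members, and then without both, Retnla was at 0.117 and 0.0554 and Scgb3a1 at 0.0618 and 0. Scgb1a1 and Scgb3a2 were both at 0.937 without both.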
